A study of Mus musculus with 6 samples.

Results

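The genes described here encode the scaffold, kinase and adhesion proteins of the postsynaptic density, the protein layer under the receptor-bearing membrane of an excitatory synapse. The 38 members were taken from the deposited count table by gene symbol, and all 38 were found among its 18263 genes and entered the test. They fall into 9 roles, namely membrane-associated guanylate kinase (MAGUK) scaffolds, SHANK, HOMER and DLGAP scaffolds, subunits of calcium/calmodulin-dependent kinase II (CaMKII), a calmodulin buffer with calcineurin, adhesion molecules, further binding partners of the MAGUK scaffolds, and regulators of actin and small GTPases in dendritic spines.

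The 6 libraries came from the hippocampus of mice aged 6 months, 3 of them 5xFAD and 3 wild type (WT), with 1 mouse per library according to the series design. 5xFAD mice carry mutated human transgenes of familial Alzheimer's disease, placed under the promoter of the neuronal gene Thy1 on a C57BL/6J background, and they deposit amyloid-beta. Both groups were of the same age and tissue and neither received a treatment named in the labels. The libraries held 8.45 to 12.6 M counts, and counts were scaled to the size of the library (CPM) with TMM factors from edgeR. A log2 difference is the 5xFAD level over the WT level, so that a negative value means less in 5xFAD, and its standard error (SE) and adjusted p-value come from the edgeR quasi-likelihood test fitted on all genes.

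At excitatory synapses, glutamate receptors are held in place by MAGUK proteins such as PSD-95, which bind DLGAP proteins. DLGAP proteins bind SHANK proteins, and SHANK proteins bind HOMER proteins and the actin cytoskeleton, so that the scaffold reaches in layers from the membrane into the spine. CaMKII is activated by calcium entering through NMDA receptors and is required for long-term potentiation in the hippocampus, while neuroligins and leucine-rich repeat proteins of the LRRTM family bind presynaptic neurexins across the cleft.

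The labels were checked before the members were compared. Thy1, whose promoter drives the transgenes, was at 623, 637 and 362 CPM in WT 1, 2 and 3 and at 2697, 2417 and 2654 CPM in 5xFAD 1, 2 and 3, a 4.79-fold difference (edgeR adjusted p = 0.00874). The astrocyte gene Gfap was 5.03-fold and the microglial gene Trem2 9.7-fold higher in 5xFAD, whereas App, the mouse gene, was 1.09-fold higher with an adjusted p of 0.907. One library, WT 3, stood apart from the other 5. Its Spearman correlation with each of them over all genes was 0.916 to 0.931, against 0.976 to 0.986 between the others. Its deviation followed the GC content of transcripts, so the counts over the members and the differences of the members described in full are given with and without it.

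The members differ widely in base composition, and stretches of their coding sequence are shown for this reason, because the values of WT 3 moved with it. Each is the 60-base stretch inside 1 coding exon whose GC content is nearest the median over such stretches of the principal transcript. They were read from GENCODE M21 on GRCm38, 5′ to 3′ on the coding strand, with G and C in capitals. Shank1 and Nrgn stand for members that were low in WT 3, Homer1 and Lrrtm4 for members that were high in it, and Nlgn1 and Cttnbp2 for members with a lower level in 5xFAD once WT 3 was left out. The stretches lie at chr7:44312710-44312769 (Shank1, plus strand), chr9:37546076-37546135 (Nrgn, minus strand), chr6:18501988-18502047 (Cttnbp2, minus strand), chr6:80021697-80021756 (Lrrtm4, plus strand), chr13:93341769-93341828 (Homer1, plus strand) and chr3:26133465-26133524 (Nlgn1, minus strand).
Shank1: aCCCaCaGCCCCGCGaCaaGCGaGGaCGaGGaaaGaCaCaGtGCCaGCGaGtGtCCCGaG
Nrgn: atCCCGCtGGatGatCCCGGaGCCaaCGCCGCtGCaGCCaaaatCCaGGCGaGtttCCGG
Cttnbp2: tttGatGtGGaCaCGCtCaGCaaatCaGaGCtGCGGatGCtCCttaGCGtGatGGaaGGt
Lrrtm4: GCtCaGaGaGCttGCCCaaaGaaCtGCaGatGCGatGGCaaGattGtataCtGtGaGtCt
Homer1: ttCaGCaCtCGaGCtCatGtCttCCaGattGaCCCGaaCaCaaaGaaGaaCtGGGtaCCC
Nlgn1: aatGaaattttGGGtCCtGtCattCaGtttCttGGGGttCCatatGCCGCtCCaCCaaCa

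Over the whole principal transcript, GC content was 61.4% for Shank1, 58.6% for Nrgn, 51.0% for Cttnbp2, 44.7% for Lrrtm4, 39.7% for Homer1 and 38.9% for Nlgn1. Among the 38 members it ran from 38.4% (Lrrtm2) to 64.5% (Begain) with a median of 53.9%, against a median of 50.7% over all genes tested.

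With all 6 libraries, no member differed between 5xFAD and WT by the test over all genes. The count was 0 of 38, where 0.656% of all 12952 genes passed, and the smallest adjusted p among the members was 0.753 (edgeR). All 85 genes that passed were higher in 5xFAD, and 0 were lower. There were 23 members higher and 15 lower in 5xFAD, with differences from -0.58 (Dlg1) to 0.39 (Homer3) and a median of 0.067, beside a median of -0.022 over all genes. Unadjusted, 2 members were under 0.05 (edgeR), Homer1 and Lrrtm2, both lower in 5xFAD. Of all genes, 6.3% were under 0.05 in either direction, and 1.78% were under 0.05 and lower. DESeq2 and limma-voom without weights also called 0 members in the 6 libraries. The SE of a member was 0.159 to 0.456, so that 9 of the 95% intervals still held a 2-fold change. RNA from whole tissue was measured, so fewer neurons and less of a transcript per neuron cannot be told apart.

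Without WT 3, most members were lower in 5xFAD and by small amounts. There were 35 lower and 3 higher (Homer2, Homer3 and Camk2g), with a median of -0.16, or -10.7%, while 48.4% of all genes were lower and their median was 0.0094. Unadjusted, 13 members were under 0.05 and all 13 were lower, where 6.06% of all genes were lower with such a p. Over all genes, 1 member was called, Cttnbp2, beside 2.89% of 13376 genes called in either direction and 0.501% called lower. With DESeq2 and limma-voom without WT 3, alternatives chosen after seeing the data, Nrgn and Cnksr2 were called lower together with Cttnbp2. Of the same 13376 genes, DESeq2 called 119 lower and 364 higher, and limma-voom called 83 lower and 278 higher. The SE of the members then had a median of 0.0892, against 0.244 with all 6 libraries, and 1 interval held a 2-fold change. After a correction for GC content in all 6 libraries, 25 members were lower with a median of -0.05 and 0 were called. Of all genes, 53.1% were lower in that fit, with a median of -0.021. Of 12952 genes, 123 were called higher and 0 lower.

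**Figure D1:**
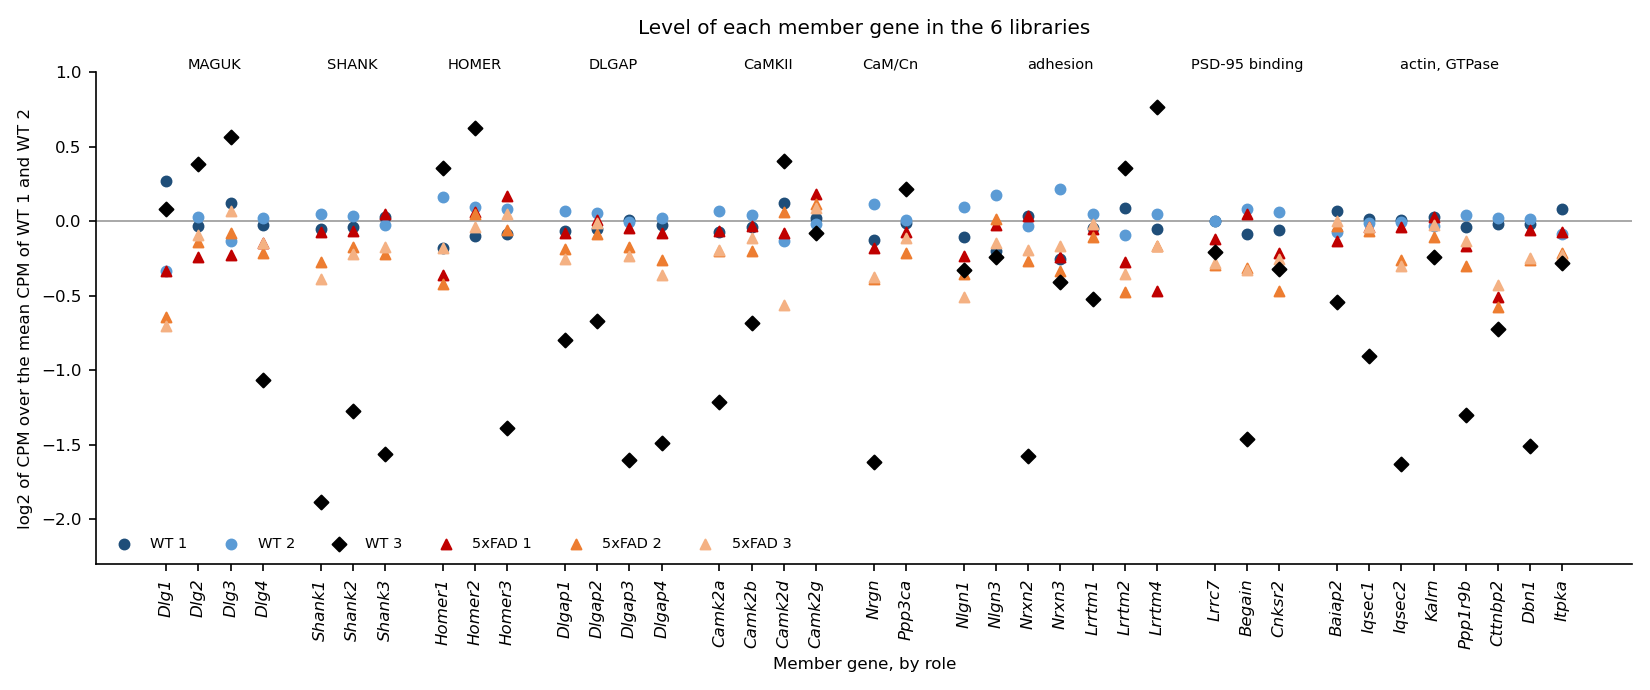
The level of each of the 38 member genes in the 6 libraries, as the log2 of its CPM over the mean CPM of WT 1 and WT 2 (y axis), with genes grouped by role (x axis). WT 3 (black diamonds) is the lowest of the 6 libraries in 26 members and the highest in 8, while the 5xFAD libraries (triangles) lie mostly just under 0.

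WT 1 and WT 2 were close to each other in most members, and WT 3 was not. WT 3 was the lowest of the 6 libraries in 26 members, the highest in 8 and inside the range of the others in 4, whereas over all genes tested it was the lowest in 35.1% and the highest in 37.9%. Its log2 deviation from the mean of WT 1 and WT 2 had a median of -0.61 over the members and 0.054 over all genes. The members held 4.78% and 4.86% of all counts in WT 1 and WT 2, 2.83% in WT 3, and 4.65%, 4.32% and 4.4% in 5xFAD 1, 2 and 3. Within the 5xFAD group the coefficient of variation of a member was 0.986% (Iqsec1) to 21.3% (Camk2d), and within WT it reached 55.7% (Shank1).

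MAGUK scaffolds anchor glutamate receptors and their auxiliary subunits at the membrane. Dlg4, which encodes PSD-95 (chromosome 11, 70016942 to 70047522), was the most abundant of the 4, at 1750, 1810 and 852 CPM in WT 1, 2 and 3 and at 1609, 1535 and 1607 CPM in 5xFAD 1, 2 and 3. WT 1 and WT 2 lay above all 3 5xFAD libraries and WT 3 far below them. The difference was 0.11 ± 0.300 (SE) with all 6 libraries and -0.16 ± 0.0759 without WT 3 (edgeR adjusted p = 0.937 and 0.337).

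Dlg2, the gene of the related scaffold PSD-93, had the opposite order of the WT libraries, with 255, 266 and 340 CPM in WT 1, 2 and 3 and 220, 236 and 244 CPM in the 5xFAD libraries. The groups did not overlap, and the difference was -0.30 ± 0.187 with WT 3, -0.15 ± 0.0895 without it and -0.10 ± 0.130 after GC correction of all 6 libraries. Dlg3, which encodes SAP102, was at 154, 129 and 209 CPM in WT and 121, 134 and 148 CPM in 5xFAD, and its groups overlapped in both sets of libraries. Its difference was -0.28 ± 0.214 with WT 3 and -0.067 ± 0.112 without it. Dlg1, the gene of SAP97, was the least abundant member of all 38, with 6.4, 4.22 and 5.62 CPM in WT and 4.21, 3.4 and 3.26 CPM in 5xFAD. It had the lowest log2 difference of the members in both sets, -0.58 ± 0.336 and -0.56 ± 0.367, but its lowest WT and highest 5xFAD values nearly met and its adjusted p was 0.810 and 0.554 (edgeR).

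SHANK proteins join the DLGAP layer to HOMER and actin. Shank1 (chromosome 7, 44310253 to 44360572) was one of the most abundant members, at 8720, 9355 and 2455 CPM in WT and 8601, 7490 and 6899 CPM in 5xFAD. WT 3 held less Shank1 than any other library by a wide margin, and the 5xFAD libraries lay just below WT 1 and WT 2. The difference turned from 0.16 ± 0.456 with WT 3 to -0.23 ± 0.0855 without it (edgeR adjusted p = 0.937 and 0.198). Shank2 and Shank3 did the same, with 0.16 and 0.25 with all libraries and -0.15 ± 0.0816 and -0.11 ± 0.0891 without WT 3. The span of Shank1 overlaps 1700008O03Rik on the opposite strand. Whether their exons overlap was not examined, and the strand setting of the counting is not given in the sources used here. Whether reads of these genes were mixed is therefore not known.

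HOMER proteins link group I metabotropic glutamate receptors and intracellular calcium channels to SHANK, and their 3 genes differed from each other in direction. Homer1 was at 104, 132 and 151 CPM in WT and 91.8, 88.3 and 104 CPM in 5xFAD. The groups met at WT 1 and 5xFAD 3, whose values were the closest, with no overlap. Homer1 was lower in 5xFAD by both fits, by -0.45 ± 0.192 with WT 3 and -0.31 ± 0.118 without it (unadjusted p = 0.0449 and 0.0172, edgeR adjusted p = 0.779 and 0.218). After GC correction of all 6 libraries it was -0.14 ± 0.177, with an unadjusted p of 0.440 (edgeR). The short activity-induced isoform Homer1a and the long isoforms share these counts.

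Homer2 had 71.9, 82.3 and 119 CPM in WT and 80.5, 79.8 and 75.1 CPM in 5xFAD, so that the sign of its difference rested on WT 3, with -0.21 ± 0.214 with that library and 0.03 ± 0.113 without it. Homer3 was one of 3 members higher in 5xFAD without WT 3, by 0.058 ± 0.118, an interval from -0.19 to 0.31. Homer3 shares its span with Ddx49 on the opposite strand.

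DLGAP proteins bind the guanylate kinase domain of PSD-95 and the PDZ domain of SHANK. Dlgap1, the most abundant of the 4 by mean CPM, was at 1422, 1562 and 857 CPM in WT and 1412, 1308 and 1253 CPM in 5xFAD. The difference was 0.049 ± 0.262 with WT 3 and -0.17 ± 0.0828 without it (edgeR adjusted p = 0.965 and 0.382). All 4 DLGAP genes were higher in 5xFAD with all libraries, by a median of 0.14, and all 4 lower without WT 3, by a median of -0.16. Among them Dlgap4 had the lowest value without WT 3, at -0.23 ± 0.0896, and Dlgap2 the one nearest 0, at -0.028 ± 0.0864, where both were above 0 with all libraries (0.12 and 0.16).

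Of the CaMKII subunits, alpha and beta make up the forebrain enzyme, whereas gamma and delta are found in many tissues. By mean CPM, not scaled to length, Camk2a was the highest of the 38 members. It was at 10945, 12045 and 4949 CPM in WT and 10955, 10008 and 10075 CPM in 5xFAD. WT 3 held less than 50% of the Camk2a level of any other library. The difference was 0.15 ± 0.362 with WT 3 and -0.15 ± 0.0733 without it, and the interval of the second, from -0.30 to 0.0070, still held 0 (edgeR adjusted p = 0.923 and 0.385). Camk2a took 83.6% to 84.7% of the counts of the 4 subunits in 5 libraries and 77.7% in WT 3. The share of Camk2b was 13.7% to 14.6% in the same 5 libraries and 18.6% in WT 3. The groups of 5xFAD and the remaining WT libraries overlapped in both shares. Camk2g was higher in 5xFAD with all libraries and without WT 3, by 0.15 ± 0.159 and 0.13 ± 0.0913, with no overlap between the groups, and WT 3 deviated from WT 1 and WT 2 by -0.08. Camk2d was the most variable member among 5xFAD libraries, at 49.3, 54.4 and 35.3 CPM.

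Neurogranin, encoded by Nrgn (chromosome 9, 37544492 to 37552904), binds calmodulin at low calcium in dendritic spines. Its levels were 3925, 4644 and 1401 CPM in WT and 3774, 3277 and 3300 CPM in 5xFAD. The 5xFAD libraries lay below WT 1 and WT 2 and above WT 3. The difference was 0.054 ± 0.402 with WT 3 and -0.31 ± 0.0871 without it, where the edgeR adjusted p was 0.0719. Ppp3ca, the catalytic subunit gene of the phosphatase calcineurin, was lower in 5xFAD with no overlap, by -0.21 ± 0.197 and -0.13 ± 0.0794 (-0.069 ± 0.140 after GC correction of all 6 libraries), and its WT 3 value was the highest of the 6.

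Of the 7 adhesion genes, 4 were lower with all libraries and 7 without WT 3, with medians of -0.12 and -0.24. Nlgn1, the gene of a neuroligin of excitatory synapses, was at 101, 116 and 86.5 CPM in WT and 92.1, 84.8 and 76.2 CPM in 5xFAD. Only 5xFAD 1 exceeded WT 3, and WT 1 and WT 2 exceeded all 5xFAD libraries. The difference was -0.26 ± 0.181 with WT 3 and -0.36 ± 0.115 without it (edgeR adjusted p = 0.811 and 0.126). After GC correction of all 6 libraries it was -0.018 ± 0.290, and 0.077 with the replicate number as a block in the same fit. Nlgn3 differed by less than its SE in both fits, by 0.021 ± 0.181 and -0.051 ± 0.123.

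Nrxn2, a neurexin gene and the most abundant adhesion member, was at 1757, 1674 and 575 CPM in WT and 1759, 1425 and 1499 CPM in 5xFAD, and the groups overlapped with or without WT 3. Its difference went from 0.23 ± 0.385 to -0.13 ± 0.0897. Neurexins act mainly on the presynaptic side, and Nrxn2 shares its span with Slc22a12 on the opposite strand.

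The LRRTM genes encode postsynaptic partners of neurexins. Lrrtm2 had the smallest unadjusted p of the 38 with all 6 libraries, at 33.1, 29.3 and 39.9 CPM in WT and 25.8, 22.4 and 24.4 CPM in 5xFAD, with no overlap. It was lower by -0.50 ± 0.205 with WT 3 and -0.36 ± 0.154 without it (unadjusted p = 0.0386 and 0.0307, edgeR adjusted p = 0.753 and 0.285). After GC correction of all 6 libraries its difference was -0.16 ± 0.204, with an unadjusted p of 0.450 (edgeR). Lrrtm2 lies within the span of Ctnna1 on the opposite strand. Lrrtm4 was at 35.6, 38.1 and 62.6 CPM in WT and 26.6, 32.9 and 32.8 CPM in 5xFAD. Here WT 3 was the member value farthest above WT 1 and WT 2, and the difference of -0.56 ± 0.254 became -0.25 ± 0.150 without it and was -0.34 ± 0.166 after GC correction of all 6 libraries. Lrrtm1, with 0.093 ± 0.193 and -0.056 ± 0.106, lay within the SE of 0 in both fits and shares its span with Ctnna2.

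**Figure D2:**
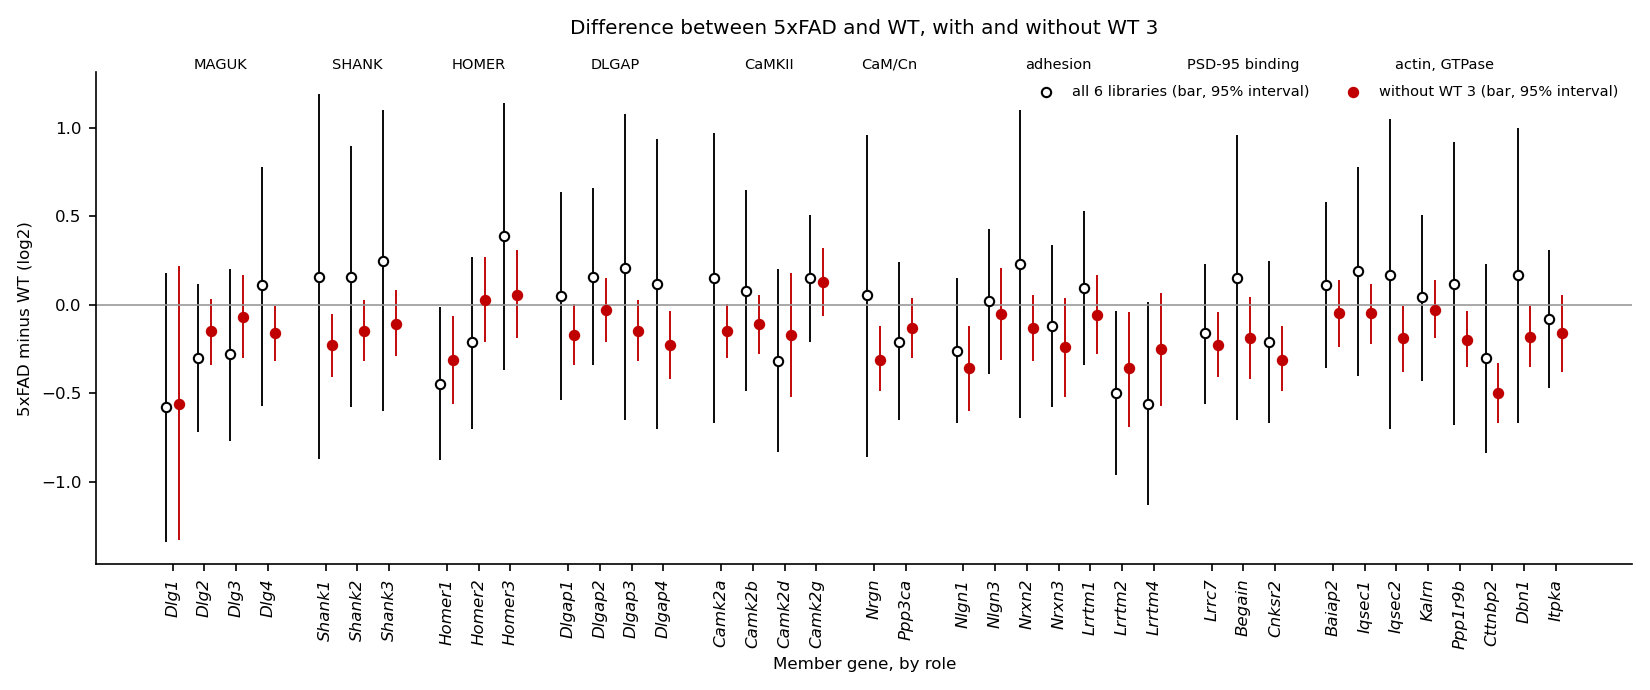
The log2 difference between 5xFAD and WT for each of the 38 member genes (y axis), by role (x axis), with all 6 libraries (open circles) and without WT 3 (filled circles), where bars are 95% intervals. Without WT 3 the intervals of most members shorten, though not that of Dlg1. Then 35 of 38 points lie under 0, and 25 of the 38 intervals still hold 0.

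The 3 further binding partners of the membrane scaffolds, Lrrc7, Begain and Cnksr2, were all lower without WT 3, by a median of -0.23. Cnksr2 encodes a scaffold of Ras signalling that binds PSD-95, and it was at 933, 1015 and 780 CPM in WT and 839, 703 and 816 CPM in 5xFAD. WT 3 lay between the 5xFAD values, and WT 1 and WT 2 above them. The difference was -0.21 ± 0.205 with WT 3 and -0.31 ± 0.0888 without it, where the edgeR adjusted p was 0.0832. After GC correction of all 6 libraries it was -0.053 ± 0.236. Lrrc7, the densin gene, was lower by -0.16 ± 0.175 and -0.23 ± 0.0878.

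Among the 8 regulators of actin and small GTPases, Cttnbp2 had the largest drop without WT 3. Cttnbp2 (chromosome 6, 18366478 to 18514843) encodes a cortactin-binding protein of dendritic spines, and it was at 702, 722 and 431 CPM in WT and 500, 477 and 530 CPM in 5xFAD. WT 1 and WT 2 were close to each other and lay above all 5xFAD libraries, while WT 3 was the lowest of the 6. The difference was -0.50 ± 0.0824 without WT 3, a level that fell by 29.3% (edgeR adjusted p = 0.00135), and -0.30 ± 0.237 with it (adjusted p = 0.818). It was called in each of the 5 fits that left out WT 3 and 1 more library, which were chosen after seeing the data, and with GC correction without WT 3 (edgeR adjusted p = 0.000793). After GC correction of all 6 libraries the difference was -0.32 ± 0.2 and Cttnbp2 was not called (edgeR adjusted p = 0.844). With all 6 libraries it was called by 1 of the methods tried, limma-voom with library weights (adjusted p = 0.0164). The call rests on leaving out or weighting down a library whose own Cttnbp2 level lies below that of the 5xFAD libraries.

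Ppp1r9b, which encodes spinophilin, a protein that targets protein phosphatase to spines, was the most abundant of the 8. It was at 4748, 5021 and 1986 CPM in WT and 4350, 3969 and 4444 CPM in 5xFAD, and its difference was 0.12 ± 0.354 with WT 3 and -0.20 ± 0.0755 without it. Iqsec2, an exchange factor gene for Arf GTPases at excitatory synapses, was at 1120, 1106 and 360 CPM in WT and 1083, 929 and 903 CPM in 5xFAD, with 0.17 ± 0.386 and -0.19 ± 0.0883. Both had WT 1 and WT 2 above, and WT 3 below, every 5xFAD library. Dbn1, the gene of the actin-binding protein drebrin, differed by 0.17 ± 0.370 with WT 3 and -0.18 ± 0.0823 without it. Baiap2, Iqsec1, Kalrn and Itpka differed by -0.029 to -0.16 without WT 3 and by -0.081 to 0.19 with it, and the intervals of all 4 held 0 in both fits.

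**Figure D3:**
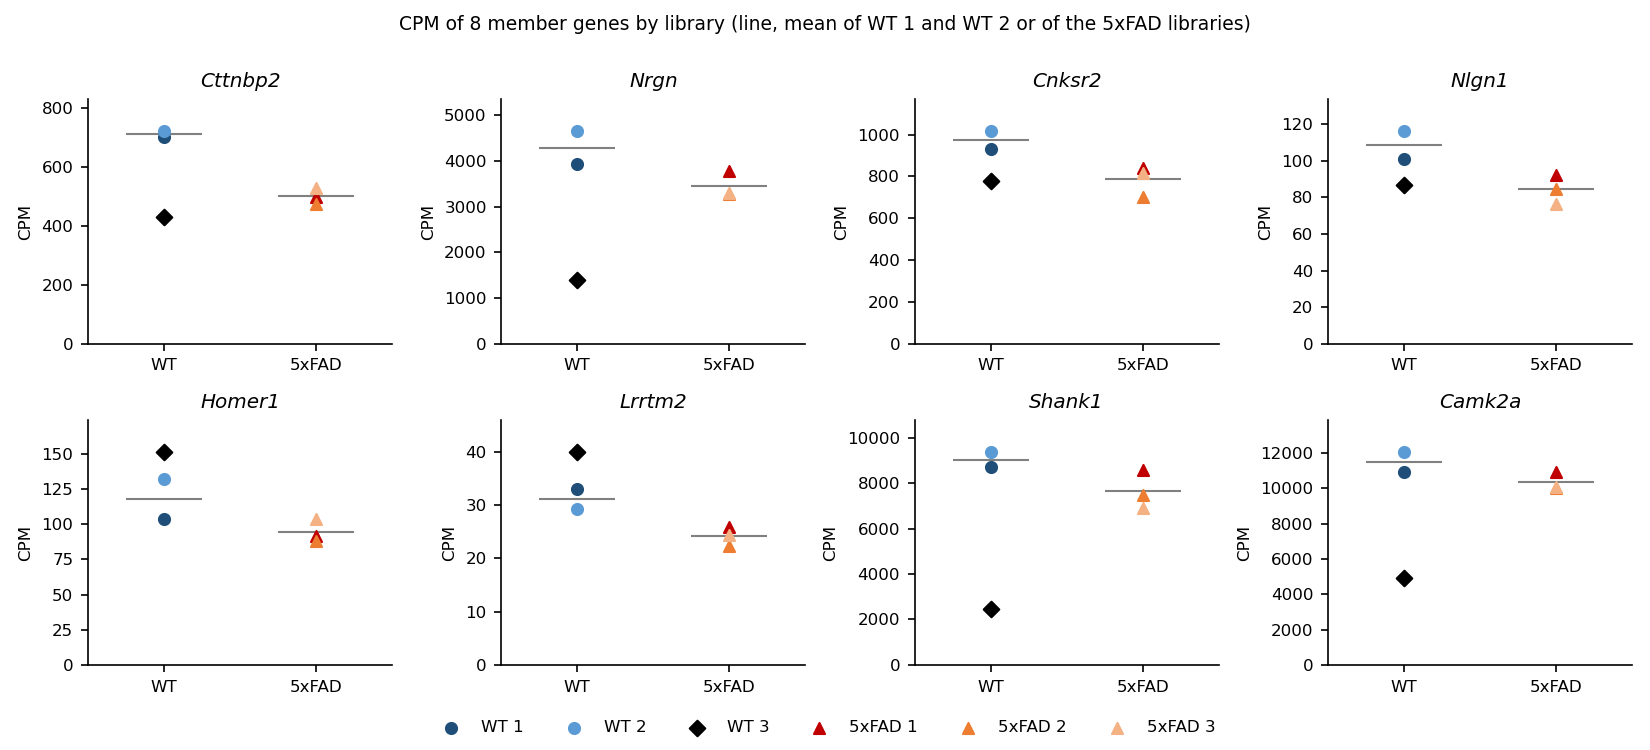
CPM of 8 member genes (y axes, from 0) in the WT and 5xFAD libraries (x axes), with 1 point per library and lines at the mean of WT 1 and WT 2 and at the mean of the 5xFAD libraries. In Cttnbp2, Nrgn, Shank1 and Camk2a the WT 3 diamond is the lowest point, and in Homer1 and Lrrtm2 it is the highest.

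Counted by overlap, the groups were apart in 7 members with all 6 libraries, 6 of them lower in 5xFAD (Dlg1, Dlg2, Homer1, Ppp3ca, Lrrtm2 and Lrrtm4) and Camk2g higher. Over all genes tested, 14.8% had no overlap, with both directions counted together, and the share of lower genes alone was not counted. The WT 3 value of these 6 lower members was the highest of the 6 libraries in 5 of them, and inside the range in Dlg1. Without WT 3, 21 members had both WT values above all 5xFAD values, where 14.5% of all genes did.

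The values of WT 3 and the size of its effect on each difference moved with base composition. Over the 38 members, the deviation of WT 3 from WT 1 and WT 2 had a Spearman correlation of -0.76 and a Pearson correlation of -0.76 with the GC content of the principal transcript, and over 12771 genes the Spearman correlation was -0.60. The points are genes measured in the same 3 libraries and are not independent. Of the other 5 libraries, each set against the rest without WT 3, 5xFAD 3 had the Spearman correlation farthest from 0 over all genes, at -0.0684. Shank1, Iqsec2 and Nrgn had the lowest deviations, at -1.88, -1.63 and -1.61, and Lrrtm4, Homer2 and Dlg3 the highest, at 0.76, 0.63 and 0.57.

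Split at 48% and 56% GC, bounds chosen after the values were seen, the 17 members over 56% had WT 3 as the lowest library in all 17 and a median deviation of -1.46. Their median difference was 0.15 with all 6 libraries and -0.16 without WT 3. In the 12 members under 48% GC, the median deviation was 0.16, and the median difference was -0.28 with all libraries and -0.24 without WT 3. The 9 members between these bounds had medians of 0.043 and -0.051. The Spearman correlation of the difference with GC content over the members was 0.79 with all 6 libraries and 0.34 without WT 3.

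Members were also lower in WT 3 than other genes of like GC content. Set against all genes in the same 2% bin of GC content, the deviation of WT 3 was below the bin's median in 31 of 38 members and below its lower quartile in 23, while 25% of all genes lie below a lower quartile by construction. For Cttnbp2, the deviation was -0.72, where the 1338 genes at 50% to 52% GC had a median of 0.05 and quartiles of -0.43 and 0.53. Other lists varied in WT 3, with median deviations of -0.51 for pan-neuronal markers, -0.88 for markers of excitatory neurons of the hippocampus, -0.087 for those of inhibitory neurons, -0.60 for those of the oligodendrocyte lineage and -1.33 for those of choroid plexus and ependyma. They were 0.26 for markers of astrocytes, 0.018 for microglia, 0.61 for endothelial and mural cells and -0.30 for striatum and thalamus. Among synaptic lists they were -0.58 for other excitatory postsynaptic scaffolds, -0.55 for other adhesion genes, -0.40 for presynaptic vesicle genes, -0.16 for glutamate receptor genes, 0.14 for inhibitory postsynaptic genes and 0.076 for calcium and calmodulin signalling genes. The part of GC content and of cell composition in the WT 3 values was not tested.

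**Figure D4:**
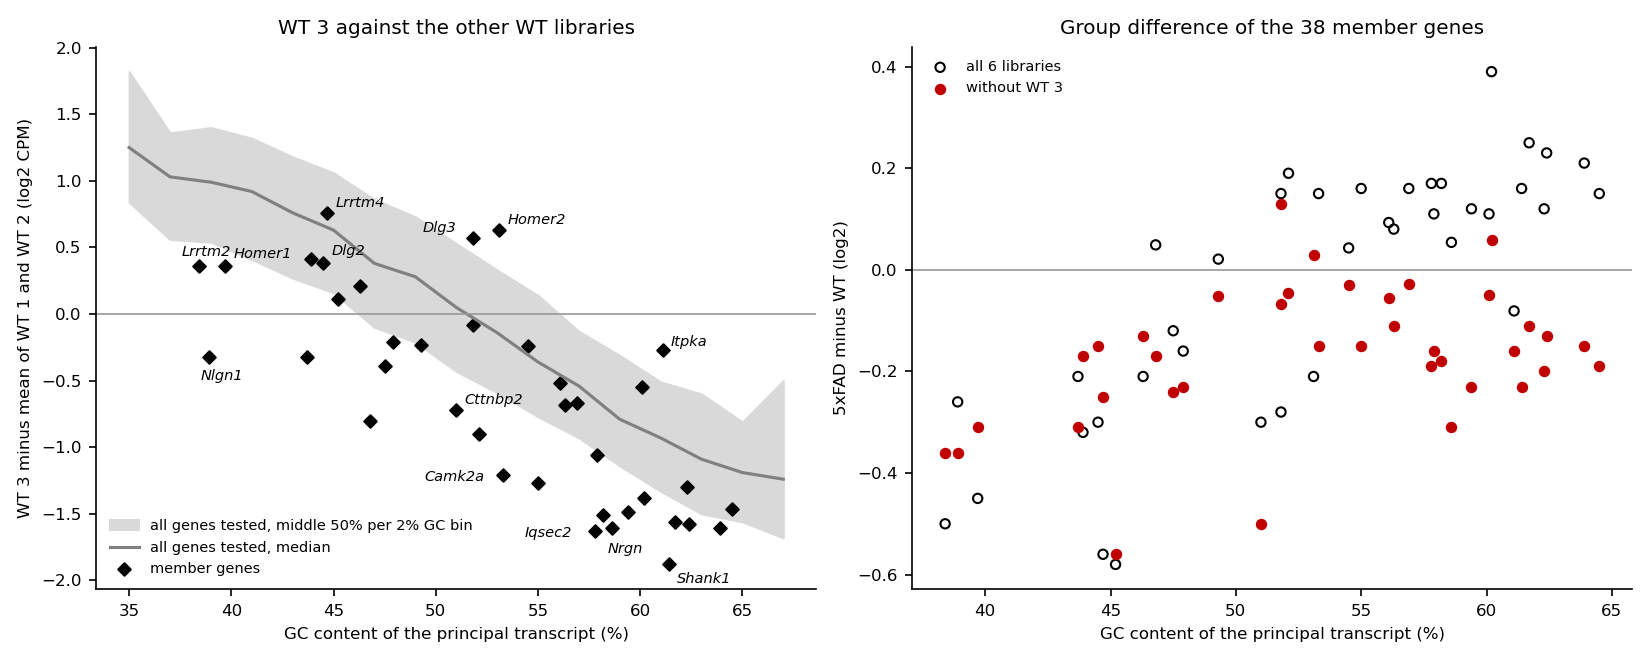
Left, the deviation of WT 3 from the mean of WT 1 and WT 2 (y axis, log2 CPM) against the GC content of the principal transcript (x axis), for the 38 members (diamonds) and for all genes tested (grey line, median, and band, middle 50% per 2% bin). Right, the log2 difference between 5xFAD and WT against the same GC content, where the points of all 6 libraries (open) climb with GC content (Spearman 0.79) and those without WT 3 (filled) less so (0.34).

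Levels of different members can be compared only per length, here as CPM per kilobase over the union of a gene's exons, averaged over the 3 5xFAD libraries. On this scale Nrgn was the highest, at 2375, ahead of Camk2a at 1386, Ppp1r9b at 837 and Shank1 at 729. Per kilobase of the principal transcript the same 4 genes led, with 2375, 2082, 944 and 780. Within families, Dlg4 was at 120, against 23.0 for Dlg3, 14.3 for Dlg2 and 0.338 for Dlg1, and Dlgap3 was at 292, ahead of 92.1 for Dlgap4, 74.0 for Dlgap1 and 46.1 for Dlgap2. Per kilobase of the principal transcript, Dlgap1 at 251 passed Dlgap4 at 160, so the order in this family depends on the length used. Homer3 was highest of the HOMER genes per kilobase of all exons, at 20.8 against 7.91 for Homer1 and 6.22 for Homer2, and the lowest of the 3 per kilobase of the principal transcript, at 27.4 against 34.3 for Homer1. Most adhesion genes were low, from 4.01 for Lrrtm2 to 28.1 for Lrrtm1 per kilobase of all exons, with Nrxn2 at 113.

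**Figure D5:**
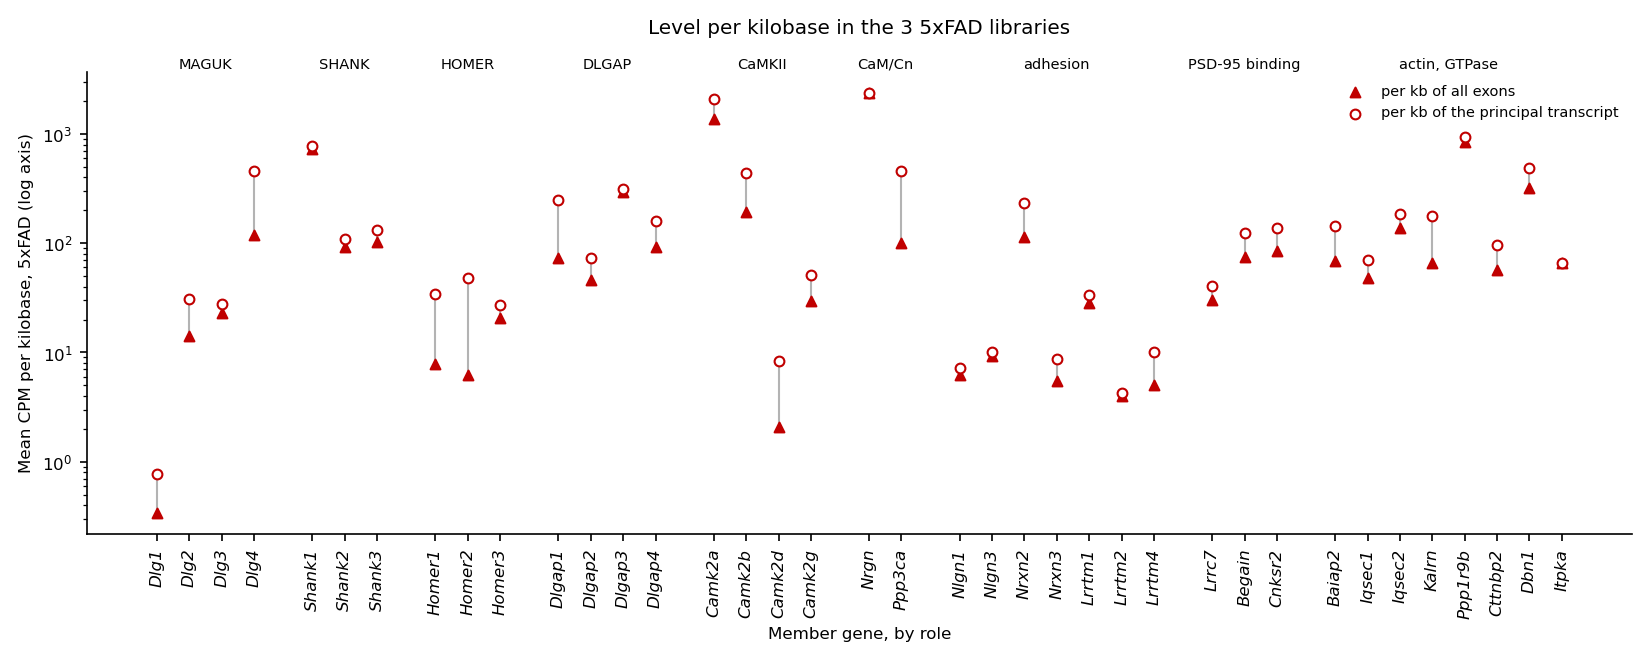
Mean CPM per kilobase of each member gene over the 3 5xFAD libraries (y axis, log scale), by role (x axis), per kilobase of all exons (triangles) and of the principal transcript (circles). Nrgn and Camk2a are the highest and Dlg1 the lowest on both scales, and long lines mark genes whose level depends on the length used, such as Homer2.

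Other synaptic genes, in lists that share no gene with the members, were mostly lower in 5xFAD when WT 3 was left out. With all 6 libraries, 0 genes of any of the 6 lists were called (edgeR). Lower were then 20 of 39 other scaffolds (median -0.015), 20 of 38 adhesion genes (-0.0054), 27 of 38 calcium and calmodulin signalling genes (-0.17), 11 of 20 glutamate receptor genes (-0.11), 10 of 14 inhibitory postsynaptic genes (-0.30) and 20 of 33 presynaptic vesicle genes (-0.034). Without WT 3, other excitatory postsynaptic scaffolds and regulators were lower in 34 of 39 genes (median -0.18), with Anks1b and Arhgap32 called lower and Sipa1l2 called higher. Other synaptic adhesion genes were lower in 35 of 38 (median -0.16) with 0 called. Calcium and calmodulin signalling genes were lower in 30 of 38 (median -0.14), with Camk2n1, an inhibitor of CaMKII, and Vsnl1, a calcium sensor, called lower. Glutamate receptor genes were lower in 17 of 20 (median -0.12), with the AMPA receptor auxiliary subunit Cacng3 called lower. Inhibitory postsynaptic genes were lower in 14 of 14 (median -0.18), and presynaptic vesicle genes in 29 of 33 (median -0.15) with 0 called. The medians of the 6 lists without WT 3 lay between -0.12 and -0.18, beside -0.16 for the members, and whether the members differed from the lists was not tested.

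Markers of cell types were set beside these counts. With all 6 libraries, 7 of 13 pan-neuronal markers were lower (median -0.071), 6 of 14 markers of excitatory neurons of the hippocampus (0.07) and 12 of 12 of inhibitory neurons (-0.40). Of 13 pan-neuronal markers, 11 were lower without WT 3 (median -0.20), with Eno2 called lower and Thy1, the gene of the transgene promoter, called higher. Of 14 markers of excitatory neurons of the hippocampus, 11 were lower (median -0.14), and of 12 markers of inhibitory neurons, 12 were lower (median -0.32), with Npy called lower. Microglial markers were higher in 13 of 13 tested with or without WT 3, and their summed level went from 238 to 296 CPM in WT to 857 to 919 CPM in 5xFAD. Summed astrocyte markers were 6786 to 7111 CPM in WT and 7480 to 8289 CPM in 5xFAD. With all 6 libraries, 7 of these 12 markers were higher and 5 lower (median 0.086). Gfap, which is in this sum, was at 287 to 330 CPM in WT and 1471 to 1735 CPM in 5xFAD. Oligodendrocyte lineage markers summed to 3634, 3555 and 2311 CPM in WT 1, 2 and 3 and to 3598 to 3973 CPM in 5xFAD. Summed markers of endothelial and mural cells were 331 to 366 CPM in WT and 323 to 360 CPM in 5xFAD. Summed markers of choroid plexus and ependyma were 414 to 2340 CPM in WT, the lowest in WT 3, and 774 to 4397 CPM in 5xFAD, and those of striatum and thalamus 276 to 307 and 276 to 313 CPM. No marker of these lists was at 0 in all libraries, and the part of cell composition in the lower levels of the members was not tested.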

How the data were processed

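rRNA-depleted total RNA was sequenced. Per the submitters' notes, the authors used cutadapt 1.9.3 for trimming, HISAT2 2.0.4 for alignment to mm10 and HTSeq 0.9.1 for counting. The annotation release or strand setting is not given in the sources used here. The deposited raw counts were the values used, and the 6 deposited columns of normalised log2 values were not used. The filterByExpr rule with a minimum count of 10 kept 12952 genes, which held 99.89% of the counts (edgeR 4.0.16, R 4.3.3). Total counts were 12.1, 11.9 and 8.7 M in WT 1, 2 and 3 and 8.45, 8.62 and 12.6 M in 5xFAD 1, 2 and 3, and members had 29 to 131149 counts per library. TMM scaling and the quasi-likelihood test were used with no covariate, with Benjamini-Hochberg adjustment over all genes and a threshold of 0.05. SE were derived from the F statistic and are approximate. Log2 CPM used a prior count of 2. CPM and overlaps use the scaling of all 6 libraries.

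Gene positions, GC content and lengths were those of GENCODE M21 (GRCm38, which is mm10). GC correction used a smooth trend with 5 degrees of freedom per library as offsets. Alternatives were other scaling, no filter, DESeq2 1.42.0, limma-voom of limma 3.58.1 with and without library weights, a likelihood ratio test, a replicate block, GC correction and leaving out libraries. The test was checked on simulated counts. Libraries of a group differed by more than sampling noise (chi-square per degree of freedom 6.72 to 116), so none was counted as a copy. The members and lists were chosen with earlier results of these data known. Values in every library were given for 18 members, namely those called in the fit of all libraries or without WT 3, the 6 smallest p-values, the most abundant of each role and the 3 highest and 3 lowest deviations of WT 3. Abundance was ranked there by mean CPM over all libraries, not scaled to length. Other members were named as the ends of a range, as genes without overlap between groups, or for their role within a family, after their values were seen. Calls of some listed genes are not reported here.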

Additional observations from a re-analysis of the deposited data

How the results depend on the processing

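RLE or upper-quartile scaling, no filter, DESeq2, limma-voom, the likelihood ratio test and the block left the count of called members at 0, as reported, and the median of the members above 0. Leaving out WT 3, library weights and GC correction turned the median below 0. The cause was not tested. Depth limits Dlg1 above all, with 29 counts in 1 library. Where WT 3 and another WT library were left out, the lone WT library was assumed to vary like the 5xFAD libraries.

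Over all genes, the calls were 85 as reported, 218 with DESeq2 and 239 with the likelihood ratio test. Library weights in limma-voom gave 410 calls, 1 of them a member (Cttnbp2), and a median of -0.15. In that fit 22 of the 38 members had the other sign than with the unweighted fit of edgeR, and of the members described in full these were -0.14 for Dlg4, -0.20 for Shank1, 0.018 for Homer2, -0.15 for Dlgap1, -0.11 for Camk2a, -0.26 for Nrgn, -0.12 for Nrxn2, -0.17 for Iqsec2 and -0.16 for Ppp1r9b.

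GC correction gave a median of -0.05 and turned the sign of 10 members, among them -0.048 for Dlg4, -0.068 for Nrgn and -0.056 for Ppp1r9b. GC correction with WT 3 left out gave 388 calls, 1 of them a member, and a median of -0.15, and turned the sign of 22 members, among them -0.17 for Dlg4, -0.19 for Shank1, 0.005 for Homer2, -0.16 for Dlgap1, -0.17 for Camk2a, -0.30 for Nrgn, -0.07 for Nrxn2, -0.20 for Iqsec2 and -0.13 for Ppp1r9b.

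DESeq2 with WT 3 left out gave 483 calls and limma-voom 361, each with 3 members (Nrgn, Cnksr2 and Cttnbp2) and a median of -0.17. The respective values were -0.17 and -0.16 for Dlg4, -0.24 and -0.24 for Shank1, 0.019 and 0.029 for Homer2, -0.18 and -0.17 for Dlgap1, -0.16 and -0.15 for Camk2a, -0.32 and -0.31 for Nrgn, -0.14 and -0.14 for Nrxn2, -0.20 and -0.20 for Iqsec2, and -0.21 and -0.19 for Ppp1r9b.

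With 1 library left out, or WT 3 and 1 other, 0 to 5 members and 15 to 481 genes were called (edgeR). The 5 members were called without WT 3 and 5xFAD 1 and were Shank1, Dlgap4, Nrgn, Cnksr2 and Cttnbp2. The 15 genes were called without 5xFAD 3. Over the same fits the median of the members ran from -0.20 to 0.19. The log2 difference ran from -0.43 to 0.066 for Dlg3, -0.19 to 0.28 for Dlg4, -0.32 to 0.45 for Shank1, -0.36 to 0.13 for Homer2, -0.23 to 0.22 for Dlgap1, -0.21 to 0.38 for Camk2a, -0.42 to 0.37 for Nrgn, -0.22 to 0.47 for Nrxn2, -0.27 to 0.41 for Iqsec2 and -0.23 to 0.34 for Ppp1r9b.

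The replicate numbers were not shown to pair the libraries, since deviations of same-numbered libraries correlated by 0.0937, 0.0694 and 0.177, although all 3 correlated best with their own number, a hint from the data alone. With the replicate number as a block, 120 genes and 0 members were called and the median of the members was 0.11 (edgeR). GC correction with the block gave 137 calls, 0 members and a median of -0.012, with -0.036 for Dlg4, -0.01 for Nrgn, 0.077 for Nlgn1, 0.00015 for Cnksr2 and -0.053 for Ppp1r9b.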
